A study of Mus musculus with 4 samples.

Results

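Chromatin accessibility in control and VEDS aorta was examined at 10 genes that mark adventitial fibroblasts, pericytes and other mural cells: *Pdgfra*, *Pdgfrb*, *Lum*, *Dcn*, *Dpt*, *Pi16*, *Gli1*, *Tcf21*, *Postn* and *Rgs5*. Every ATAC-seq peak in the body of one of these 10 genes, or within 20 kb of either end, was taken from 4 deposited peak lists. The gene windows cover 657713 bp in all. They held 15 of 21176 peaks in the control female list, 25 of 41444 in the VEDS male list, 0 of 1236 in the control male list and 0 of 504 in the VEDS female list. After overlapping peaks were merged, 26 regions remained, of 42874 in the whole series.

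Vascular Ehlers-Danlos syndrome (VEDS) was modelled by a heterozygous glycine substitution in type III collagen, *Col3a1*G938D/+, and control mice were *Col3a1*+/+. All mice were 60 days old, and the VEDS libraries carry the treatment label of disease and the controls that of none. Each of the 4 libraries was made from nuclei of pooled aortae of 2 mice of 1 sex, so that each genotype has 1 female and 1 male library. Nuclei were transposed and barcoded in droplets, as for single cells, but the peaks were called on the aggregate of a library, and no value is given per cell. The whole aorta mixes VSMC, fibroblasts, mural, endothelial and other cells. A weak peak from few cells of a type and a weak peak from less open chromatin in each cell cannot be told apart.

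Each genotype and each sex has 1 long and 1 short list. The median peak rested on 14 fragments at its summit in control female, 7 in control male, 6 in VEDS female and 22 in VEDS male. In control male, 69.6% of peaks lay mostly in masked repeats, against 28.1% in VEDS female, 3.9% in control female and 5.1% in VEDS male. No test between genotypes was made, since 2 libraries against 2 allow no two-sided exact permutation p under 0.333, and the long lists differ in both genotype and sex. Fold enrichment and −log10 q depend on the depth of a library and were not compared between lists. Peaks were instead placed by their rank within their own list, with rank 1 the highest −log10 q.

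In the outer layer of the artery, the adventitia, fibroblasts lay down the collagens and small proteoglycans of the matrix. They are recognized by the receptor tyrosine kinase *Pdgfra*, by the proteoglycans lumican (*Lum*) and decorin (*Dcn*), by dermatopontin (*Dpt*), a matrix protein that binds decorin, and by *Pi16*, a secreted protease-inhibitor family member that marks a progenitor-like fibroblast. *Gli1*, the transcription factor at the end of Hedgehog signaling, and *Tcf21*, a basic helix-loop-helix factor, mark progenitor populations, and periostin (*Postn*) is a matrix protein raised in activated fibroblasts. Pericytes and other mural cells carry *Pdgfrb*, the receptor for PDGF-B from the endothelium, and *Rgs5*, which shortens signaling by G protein-coupled receptors. Factors of the AP-1 family bind the letters TGACTCA at enhancers of many cell types, and peaks away from a transcription start site (TSS) are where such enhancers are usually found.

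The sequences around the summits of 8 of the peaks are given first, and they can reach beyond the called peak. All are on the plus strand of GRCm38 (mm10), centered on the summit of the peak of higher rank in its list, up to 300 bases long and trimmed where they reach an untranslated exon. Capitals mark a match to one of 11 fixed motifs, and a match can lie outside the called peak. Searched on both strands were AP-1 (TGACTCA), a full CRE (TGACGTCA), TEAD (CATTCCA), RUNX (TGTGGTT), GLI (GGGTGGTC), the E-box that TCF21 and other helix-loop-helix factors bind (CAGCTG), an NFI site (TTGGCAA), the GC box (GGGCGG), and by name MEF2, the CArG box and the CTCF core. The highest-ranked distal member peak of VEDS male is in the kinase-coding part of *Pdgfra*, and its summit lay on the E-box, with the AP-1 match to its right.
Pdgfra intron 17, chr5:75185580-75185879: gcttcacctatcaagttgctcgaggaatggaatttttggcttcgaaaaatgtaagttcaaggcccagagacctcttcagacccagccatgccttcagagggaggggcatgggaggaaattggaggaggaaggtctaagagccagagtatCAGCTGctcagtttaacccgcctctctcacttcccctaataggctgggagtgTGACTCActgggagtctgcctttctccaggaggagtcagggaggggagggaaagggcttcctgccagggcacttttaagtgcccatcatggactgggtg

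The promoter-like peak of *Pdgfra* holds a CTCF core, with a GC box just past the end of the called peak. The peak just upstream of *Gli1* holds another CTCF core. Both peaks are shown together because these are the members' own promoter peaks with a CTCF core.
Pdgfra intron 1, chr5:75156350-75156499: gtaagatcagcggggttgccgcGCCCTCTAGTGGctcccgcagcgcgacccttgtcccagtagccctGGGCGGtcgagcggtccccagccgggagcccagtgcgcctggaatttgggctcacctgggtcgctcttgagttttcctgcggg
Gli1 upstream, chr10:127342307-127342606: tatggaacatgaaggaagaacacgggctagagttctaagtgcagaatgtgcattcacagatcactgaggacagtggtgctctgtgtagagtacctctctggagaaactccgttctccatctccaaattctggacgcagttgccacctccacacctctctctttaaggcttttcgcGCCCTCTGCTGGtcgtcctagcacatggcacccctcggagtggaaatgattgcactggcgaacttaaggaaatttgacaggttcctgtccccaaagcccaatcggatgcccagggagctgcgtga

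At *Postn*, the peak upstream of the gene was in both long lists and the peak on the start site was in VEDS male only. The first has a MEF2 match in its summit window, outside the called peak of either list. Capitals in the second mark the letters TATAAA, a core promoter element, which begins 28 bp before the gene start. The same letters also occur in the first sequence, where they are left in lower case. This element was not among the 11 motifs and was looked for after the sequences had been read.
Postn upstream, chr3:54358472-54358771: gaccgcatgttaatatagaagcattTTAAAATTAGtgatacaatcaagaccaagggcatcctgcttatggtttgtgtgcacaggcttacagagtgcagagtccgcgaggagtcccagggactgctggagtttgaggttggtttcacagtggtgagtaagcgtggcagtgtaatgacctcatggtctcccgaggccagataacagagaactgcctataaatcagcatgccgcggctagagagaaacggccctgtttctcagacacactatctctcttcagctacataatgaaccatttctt
Postn start, chr3:54360914-54361108: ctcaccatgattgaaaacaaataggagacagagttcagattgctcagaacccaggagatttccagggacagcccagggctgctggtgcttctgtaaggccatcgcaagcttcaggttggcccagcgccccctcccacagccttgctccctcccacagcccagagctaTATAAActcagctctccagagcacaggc

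The start of *Rgs5* was in both long lists and stands for the mural genes. Its E-box lies past the start, at +26 bp, outside the stretch shown.
Rgs5 start, chr1:169655310-169655500: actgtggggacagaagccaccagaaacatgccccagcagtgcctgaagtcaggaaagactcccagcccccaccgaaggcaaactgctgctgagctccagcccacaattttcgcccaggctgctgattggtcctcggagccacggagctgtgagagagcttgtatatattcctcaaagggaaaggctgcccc

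The first *Dpt* sequence is the only region found in control female and not in VEDS male, with AP-1 next to its summit, and the second was found in both long lists and holds none of the 11 motifs.
Dpt intron 1, chr1:164798378-164798677: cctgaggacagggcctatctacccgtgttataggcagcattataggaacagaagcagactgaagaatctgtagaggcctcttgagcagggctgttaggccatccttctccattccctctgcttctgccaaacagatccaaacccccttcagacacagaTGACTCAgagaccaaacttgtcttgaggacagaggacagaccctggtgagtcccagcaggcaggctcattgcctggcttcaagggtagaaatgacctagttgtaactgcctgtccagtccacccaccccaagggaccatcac
Dpt intron 2, chr1:164809511-164809810: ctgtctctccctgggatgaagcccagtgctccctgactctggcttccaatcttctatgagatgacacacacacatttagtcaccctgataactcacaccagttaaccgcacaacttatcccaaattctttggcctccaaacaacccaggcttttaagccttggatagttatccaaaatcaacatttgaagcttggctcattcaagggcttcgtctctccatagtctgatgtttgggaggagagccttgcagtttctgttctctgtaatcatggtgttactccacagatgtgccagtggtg

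In each long list 7 members had a peak in their window, and they were the same genes: *Pdgfra*, *Pdgfrb*, *Dpt*, *Pi16*, *Gli1*, *Postn* and *Rgs5*. Among 21938 protein-coding genes with windows drawn the same way, 64.1% had a peak in control female, 73.5% in VEDS male, 4.61% in control male and 3.2% in VEDS female. The 7 of 10 members are close to these shares in both long lists. Per 100 kb of window, the members held 2.28 peaks in control female and all coding genes 1.66, and in VEDS male 3.8 and 2.94. The absence of all 10 genes from the short lists goes with the low share of all genes there.

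**Figure D1:**
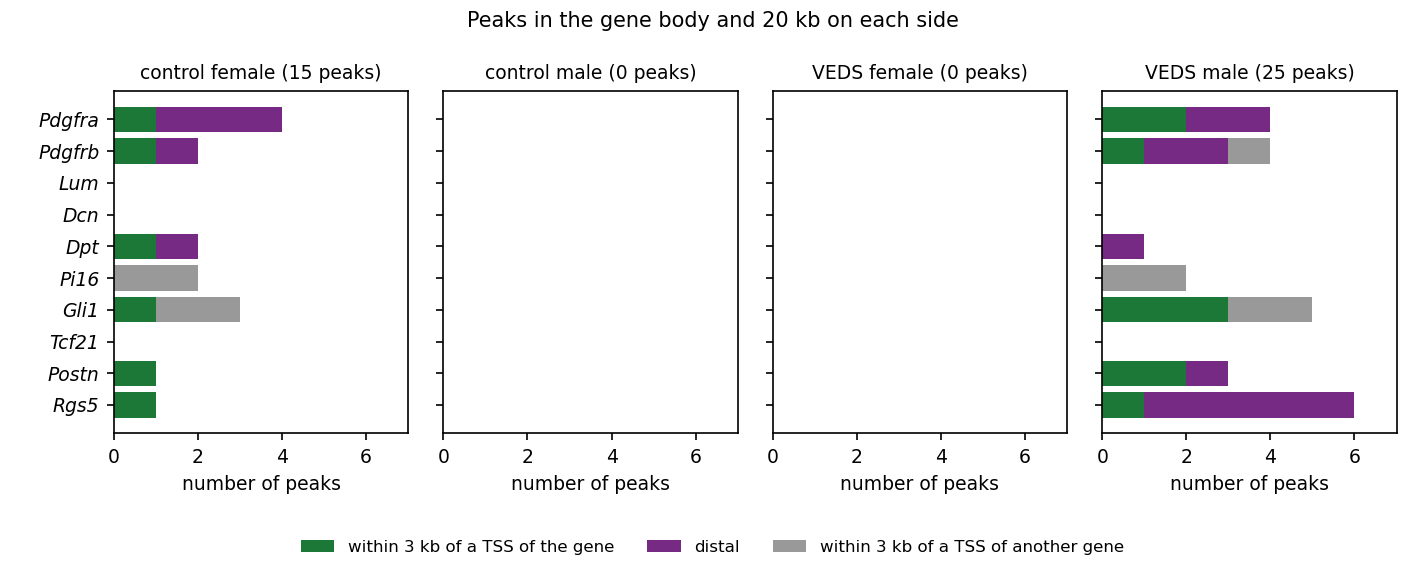
Number of peaks (x axis) in the gene body and 20 kb on each side of each gene (y axis), in each of the 4 libraries. Green, within 3 kb of a TSS of the gene; purple, farther than 3 kb from any TSS; gray, within 3 kb of a TSS of another gene. The 15 control female and 25 VEDS male peaks fall on the same 7 genes, *Lum*, *Dcn* and *Tcf21* have none, and both short lists are empty.

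A peak within 3 kb of a TSS of the gene itself, called a promoter peak here, was found at 6 members in control female (*Pdgfra*, *Pdgfrb*, *Dpt*, *Gli1*, *Postn* and *Rgs5*) and at 5 in VEDS male (the same genes without *Dpt*). Over all protein-coding genes, 47.4% had a promoter peak in control female, 58.5% in VEDS male, 1.56% in control male and 1.49% in VEDS female. All 10 members are poor in CpG around their 5′-most start. The observed to expected ratio in 1000 bp ran from 0.187 at *Lum* to 0.54 at *Gli1*, below the 0.6 that separated the classes. Of the 11855 CpG-poor coding genes, 23.0% had a promoter peak in control female and 33.4% in VEDS male, and of the 10083 CpG-rich genes 76.1% and 87.9%. The members' 6 and 5 of 10 stand above the shares of the CpG-poor genes and on either side of those of all genes.

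The 26 regions divided into 13 in both long lists, 12 in VEDS male only and 1 in control female only. Of the control female member peaks, 93.3% lay in shared regions, and of the VEDS male ones 52.0%. Over all peaks these shares were 95.0% and 47.6%, close to those of the members. In shared regions the nearest summits of the lists were 1 to 68 bp apart, with a median of 26 bp, and in 12 of 13 they were at most 60 bp apart.

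Peaks in VEDS male only were mostly shallow. Their summits held a median of 12.5 fragments (8 to 32), against 41 (14 to 76) for VEDS male peaks in shared regions. Above the list median of 22 were the peak on the *Postn* start (27) and that at +2985 bp of *Gli1* (32). Over all VEDS male peaks the medians were 15 without and 37 with an overlapping control female peak. The 12 unshared peaks had a median rank at 78.2% of the list (40.2% to 98.6%), and the 13 shared ones at 31.2%. The single control female peak without a counterpart, in intron 1 of *Dpt*, had 5 fragments, the fewest any peak of that list has.

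**Figure D2:**
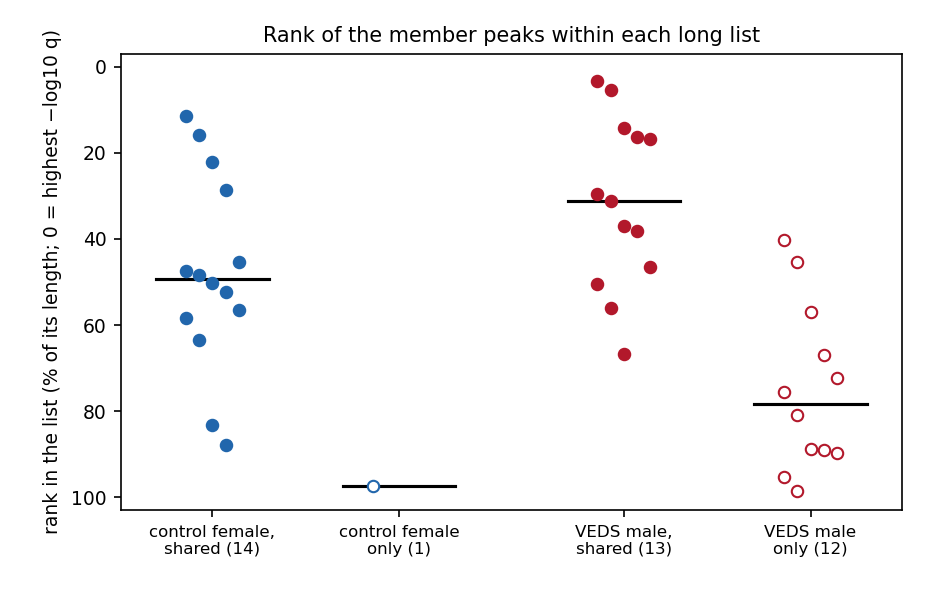
Rank of each member peak in its own list, as a percentage of the length of the list (y axis, 0 at the top is the highest −log10 q), for peaks in regions found in both long lists (filled) and in 1 only (open). Lines are medians; sideways offsets only separate points. VEDS male peaks absent from control female have a median rank of 78.2%, against 31.2% for the shared ones.

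*Pdgfra*, the receptor that defines fibroblasts (ENSMUSG00000029231, chr5:75152292-75198215, plus strand, 45.9 kb), had 4 peaks in each long list, all inside the gene. None lay on the 5′-most start: the nearest edge was 3857 bp away in control female and 3728 bp in VEDS male. The promoter peak was instead in intron 1, at +4045 bp in control female and +4058 bp in VEDS male, 250 and 121 bp from the start of an alternative coding transcript at position 75155899. It ranked 11933 in control female with 14 fragments and a fold enrichment of 6.43, and 19296 in VEDS male with 26 fragments and 6.24. A VEDS male peak at +4938 bp, with 22 fragments, lay 254 bp from another annotated start.

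The other *Pdgfra* peaks were in the 3′ part of the gene, in introns 16 and 17, and included the members' best-ranked distal peaks in both lists. The intron 16 region (chr5:75183862-75184533) ranked 6050 in control female with 25 fragments and a fold enrichment of 7.27, and 12928 in VEDS male with 44 fragments and 6.1. It holds a pair of E-boxes, at 75183999 and 75184018, and an NFI site. The next region (chr5:75185004-75185900) was 1 peak of 897 bp in VEDS male, rank 6920, with 58 fragments and a fold enrichment of 8.08. In control female the same stretch was split into a peak in intron 16 with 18 fragments (rank 12358) and a peak in intron 17 with 19 fragments (rank 11083). The AP-1 match at 75185781-75185787 lay 16 bp from the control female summit and 51 bp from the VEDS male summit. That AP-1 match was the only one in the 300-bp windows of distal member peaks in either list.

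*Pdgfrb*, the receptor of pericytes and VSMC (ENSMUSG00000024620, chr18:61045150-61085061, plus strand, 39.9 kb), had the members' best-ranked promoter peak in both long lists. The summit was at −102 bp from the gene start in control female, with 24 fragments, a fold enrichment of 8.88 and rank 4677. In VEDS male it was at −66 bp, with 56 fragments, a fold enrichment of 8.55 and rank 6792. A second shared region was in intron 1, at +13448 bp in control female (15 fragments, rank 13448) and at +13380 bp in VEDS male (41 fragments, rank 12221). Neither region held any of the 11 motifs in the 300 bp around its summits, and the rest of each region was not searched. VEDS male alone had a peak at −18203 bp with 9 fragments (rank 40866) and one at +54073 bp with 10 fragments (rank 36936). Each had an E-box in its summit window, which at the second lay outside the called peak. The second peak was 1327 bp from a TSS of *Csf1r*, the macrophage colony-stimulating factor receptor, which is the neighboring gene.

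*Rgs5* (ENSMUSG00000026678, chr1:169655501-169695813, plus strand, 40.3 kb) had a peak on its start in both long lists, at −42 bp in control female and −41 bp in VEDS male. It was among the weakest control female member peaks, with 7 fragments, a fold enrichment of 4.91 and rank 18607. In VEDS male it had 21 fragments, a fold enrichment of 9.43 and rank 15792. The summits were 1 bp apart. *Rgs5* had 5 further peaks in VEDS male, more than any other member, and none of them in control female. Of these, 2 were in intron 1 at +17067 and +19754 bp with 14 and 11 fragments, 1 was in exon 5 at +38182 bp with 9, and 2 were past the gene at +44081 and +57385 bp with 8 and 12. All 5 ranked between 29959 and 39487 of 41444, and 54.0% of the last one is masked repeat.

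*Gli1* (ENSMUSG00000025407, chr10:127329882-127341974, minus strand, 12.1 kb) had a shared peak just upstream, at −483 bp in control female with 16 fragments (fold enrichment 7.12, rank 9608) and at −480 bp in VEDS male with 25 fragments (fold enrichment 5.09, rank 23254). VEDS male added a pair of peaks in intron 2, at +2985 bp with 32 fragments and at +1865 bp with 22. The one at +2985 bp, rank 16645, was the highest-ranked member peak found in VEDS male only, and the other holds a pair of GC boxes. The *Gli1* window also held peaks at the promoters of its neighbors. The peak on the start of *Mars*, which encodes a methionyl-tRNA synthetase, ranked 3377 in control female with 23 fragments and 1339 in VEDS male with 76. The peak at *Inhbe*, an inhibin subunit, ranked 10036 and 5907 with 14 and 49 fragments. Both outranked the peaks of *Gli1* itself in VEDS male, and in control female only the *Mars* peak did.

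*Postn* (ENSMUSG00000027750, chr3:54361109-54391037, plus strand, 29.9 kb) had a shared peak at −2487 bp in control female and −2483 bp in VEDS male. It had 15 fragments, a fold enrichment of 7.01 and rank 10253 in control female, and 25 fragments, 5.87 and rank 20881 in VEDS male. The start itself, at −45 bp, was a peak in VEDS male only, with 27 fragments, a fold enrichment of 6.21 and rank 18811. A weaker VEDS male peak at −11421 bp had 13 fragments and rank 33561, with a RUNX match in its summit window but outside the called peak. No peak was found inside the gene beyond its start.

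*Dpt* (ENSMUSG00000026574, chr1:164796644-164824266, plus strand, 27.6 kb) had no peak on its start in any list. The shared region was in intron 2, at +13011 bp in control female with 7 fragments (fold enrichment 5.31, rank 17629) and at +13017 bp in VEDS male with 14 (fold enrichment 5.87, rank 27675). The control female peak in intron 1, at +1884 bp, ranked 20633 of 21176. Its AP-1 match, at 164798536-164798542, lay 8 bp from the summit. It was 1879 bp from the start. With promoters limited to 1 kb, 4 members had a promoter peak in control female, without *Dpt* and *Postn*, and 5 in VEDS male.

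*Pi16* (ENSMUSG00000024011, chr17:29317680-29330593, plus strand, 12.9 kb) had no peak of its own. Both peaks of its window in each long list lay downstream, at promoters of *Mtch1*, a mitochondrial carrier homolog. The peak on the *Mtch1* start ranked 2417 in control female with 27 fragments and a fold enrichment of 11.6, and 2235 in VEDS male with 71 fragments and 13.5. It held GC boxes, which are common in promoters active in many cell types. The weaker peak beside it had 14 and 30 fragments.

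*Lum* (ENSMUSG00000036446, chr10:97565128-97572703, plus strand, 7.58 kb), *Dcn* (ENSMUSG00000019929, chr10:97479609-97518143, plus strand, 38.5 kb) and *Tcf21* (ENSMUSG00000045680, chr10:22817281-22820174, minus strand, 2.89 kb) had no peak in any list. Of all coding genes, 35.9% had none in their window in control female and 26.5% in VEDS male. The nearest peak to *Lum*, a secreted proteoglycan of collagen fibrils, was 230 kb away in control female and 122 kb in VEDS male, and 12.1% and 13.1% of coding genes were farther from a peak. For *Dcn*, its neighbor on the chromosome, the distances were 145 and 42.7 kb, and 16.3% and 20.9% of genes were farther. For *Tcf21* the nearest peak was 57.4 kb away in each list, with 25.6% and 18.7% of genes farther. A gene without a peak was not taken to be closed, since a peak needed at least 5 fragments in control female and 7 in VEDS male.

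**Figure D3:**
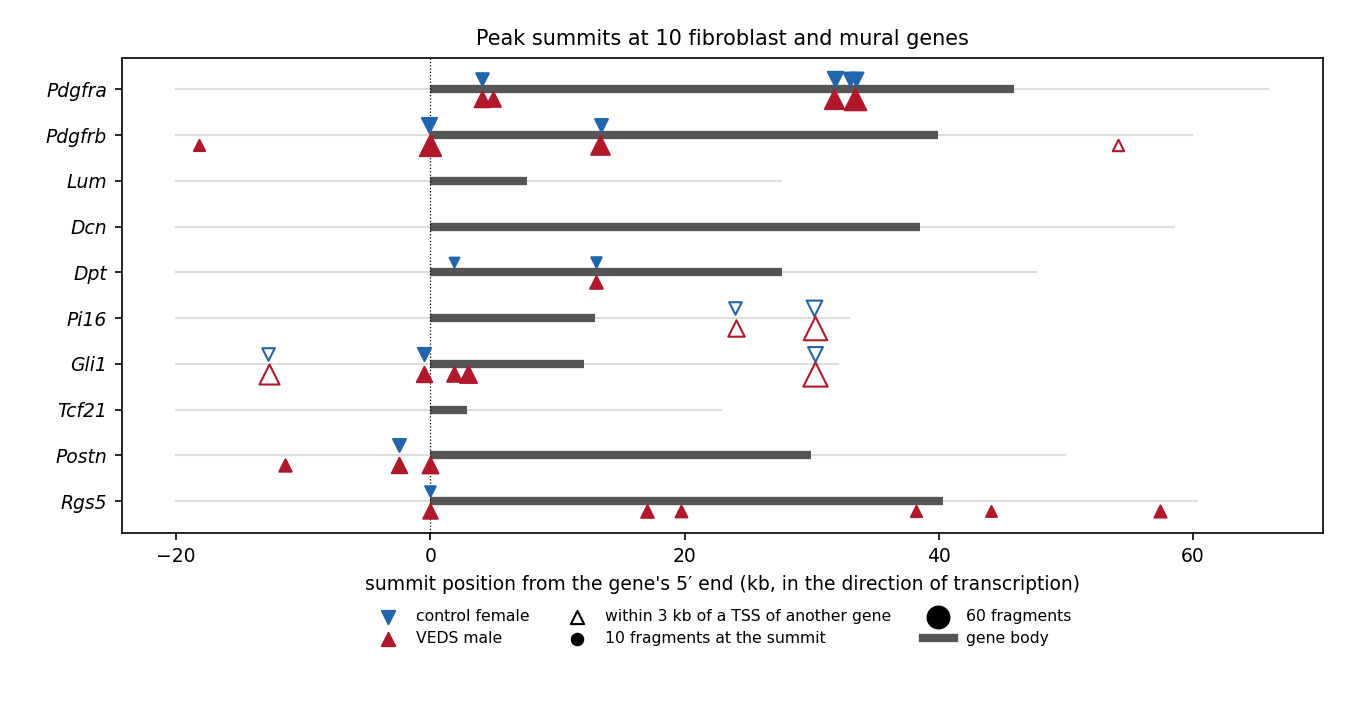
Summit position of every member peak (x axis, kb from the 5′ end of the gene in the direction of transcription) in control female (blue, above each line) and VEDS male (red, below). Gray bars are gene bodies, thin lines the 20 kb on each side, symbol area grows with the fragments at the summit, and open symbols lie within 3 kb of a TSS of another gene. Shared peaks line up above and below the gene, *Rgs5* has 5 small symbols in VEDS male only, and both *Pi16* peaks are open symbols downstream of the gene.

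Distal member peaks, those farther than 3 kb from any TSS, numbered 5 in control female and 11 in VEDS male. AP-1 was found in 1 of 5 and 1 of 11 of their 300-bp windows, against 18.7% of 9149 distal control female peaks and 15.5% of 22066 distal VEDS male peaks. The E-box was in 2 of 5 and 3 of 11, against 21.1% and 21.8%. The NFI site was in 1 of 5 and 3 of 11, against 8.37% and 7.82%, at *Pdgfra* and, in VEDS male, at *Rgs5*. GLI was in 1 of 5 control female windows, against 0.459%, at 75185875-75185882 in *Pdgfra*. That match lay just past the end of the called control female peak. It lay inside the called VEDS male peak but ran past the end of the summit window there. RUNX was in 1 of 11 VEDS male windows, against 6.26%. None held TEAD (9.26% and 8.13% of all distal peaks), MEF2 (9.33% and 8.1%) or a CArG box (4.34% and 3.94%), the last 2 being motifs of VSMC contractile genes. With 5 and 11 windows, a count of 0 cannot be told from shares of this size.

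The members' promoter peaks, 6 in control female and 9 in VEDS male, had few GC boxes, in 1 of 6 and 2 of 9, against 61.4% of 11979 and 51.6% of 19299 promoter peaks. All 10 genes are CpG-poor around the 5′-most start, as given above, but at *Pdgfra* the promoter peaks lie elsewhere. A link of GC boxes to CpG content was not tested. The CTCF core was in 2 of 6 and 2 of 9, at *Pdgfra* and *Gli1*, against 1.67% and 2.38%. MEF2 was in 1 window of each list, upstream of *Postn* (2.66% and 3.15%). GLI, bound by the product of *Gli1*, was in 1 window of each, at *Pdgfra* (0.718% and 0.731%). The E-box was in 1 of each, at *Rgs5* (16.4% and 17.9%). AP-1 was in 1 of 6 in control female, at *Dpt* (6.23%), and the NFI site in 1 of 9 in VEDS male, at *Pdgfra* (3.75%). A match is the presence of letters and does not show that a factor was bound.

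RefSeq promoter sequences, 250 bases before to 50 after a start, were matched for 6 of the 10 members, *Pdgfra*, *Dpt*, *Pi16*, *Tcf21*, *Postn* and *Rgs5*. *Postn* also had a RefSeq promoter upstream of the gene start used here, at chr3:54359017-54359316, without TATAAA. The shared upstream peak reached into that promoter in VEDS male but not in control female. On the gene's strand, TATAAA began at −26 bp of a RefSeq start of *Postn*, where it had been seen first, and at +12 bp of that of *Dpt*. It was in 8.32% of all 32851 promoters, and since *Postn* prompted the search, nothing is read from the members against this share.

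Other genes of the same cells were read in the same lists. Of 32 further adventitial fibroblast genes, 14 (43.8%) had a promoter peak in control female and 20 (62.5%) in VEDS male. The shares of all coding genes were close to these, at 47.4% and 58.5%. The genes of both fibrillar collagen I chains (*Col1a1*, *Col1a2*) and the transcription factors *Ebf1*, *Ebf2*, *Osr1*, *Prrx1* and *Twist1* had a promoter peak in both long lists. That of *Prrx1* was near the floor in control female, at rank 21161 of 21176 with 6 fragments. *Ebf1* ranked highest, at 492 in control female with 40 fragments and 2397 in VEDS male with 73. *Ebf2* followed at 6991 in control female, and *Col1a2* at 6428 in VEDS male. Neither long list had one at 12 genes (*Fbln1*, *Ly6a*, *Pdpn*, *C3*, *Cygb*, *Clec3b*, *Igf1*, *Serpinf1*, *Fmod*, *Dpep1*, *Meox1* and *Meox2*). The members *Lum*, *Dcn*, *Pi16* and *Tcf21* also lacked a promoter peak in both. Other small proteoglycans went both ways. *Fmod* lacked a promoter peak, *Aspn* and *Ogn* had a promoter peak in both long lists, and *Prelp* in VEDS male only. *Ly6a* is the Sca-1 antigen of adventitial progenitors.

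Of 18 further pericyte and mural genes, 7 (38.9%) had a promoter peak in control female and 12 (66.7%) in VEDS male. These lie below and above the 47.4% and 58.5% of all coding genes. *Tbx18*, a transcription factor of mural cells, and *Heyl*, a Notch target, ranked highest in both, at 2753 and 7679 in control female and 4902 and 4721 in VEDS male. In neither list was one found at 6 genes, among them *Higd1b* and *Cox4i2*, which mark pericytes. By contrast, 10 of 10 VSMC genes had a promoter peak in each long list. Their best peak had a median rank at 28.3% of the control female list and 15.1% of the VEDS male list, and the members' at 52.4% and 40.2%. Over all coding genes with a promoter peak the medians were 28.1% and 18.6%.

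Markers of the other cells of the aortic wall give the scale for these counts. A promoter peak was found at 1 of 10 endothelial genes in control female (*Pecam1*, 7 fragments) and 6 of 10 in VEDS male. It was found at 0 and 1 of 10 immune genes, 2 and 5 of 8 adipocyte genes, 1 and 1 of 4 Schwann cell genes, and 1 and 2 of 6 striated muscle genes. The immune gene was *Csf1r*, through the peak at +54073 bp of *Pdgfrb*. The share of all coding genes with a promoter peak was also higher in VEDS male (58.5% against 47.4%), as were the counts of the other fibroblast and the other mural genes, and the part of any cell type in the difference between the lists was not tested. In both short lists, every gene list was at 0.

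**Figure D4:**
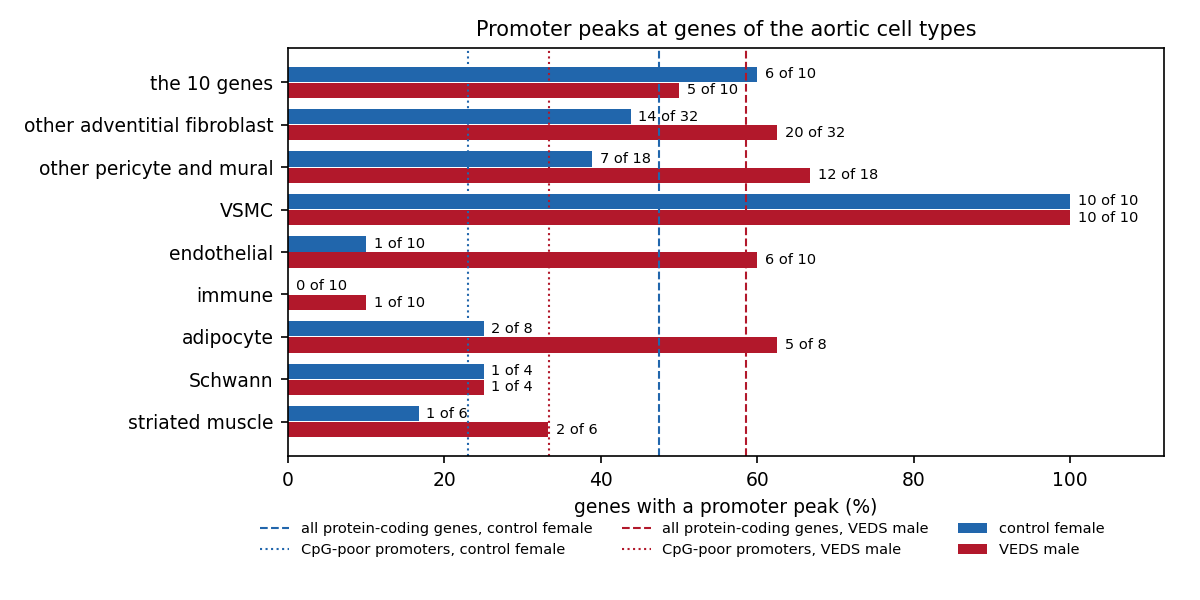
Share of the genes of each cell type list with a peak within 3 kb of a TSS (x axis, %), in control female (blue) and VEDS male (red), with the number of genes beside each bar. Dashed lines are the shares of all protein-coding genes (47.4% and 58.5%), dotted lines those of CpG-poor promoters (23.0% and 33.4%). All 10 VSMC genes have a promoter peak in both lists, against 6 and 5 of the 10 fibroblast and mural genes.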

How the data were processed

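ATAC-seq libraries of P60 aortic nuclei (1 female and 1 male per genotype, 2 mice pooled in each) were examined as deposited narrow-peak lists. Per the labels and the study's methods, the authors aligned reads to mm10 (GRCm38), removed duplicates by barcode, corrected Tn5 cut sites, called peaks with MACS2 in each library and excluded blacklisted regions. The aligner and the peak threshold are not given in the sources used here, and the lowest −log10 q was 1.303 to 1.321. Each deposited peak has a score, a fold enrichment (the ratio of summit to local background), and a p-value and q-value on the −log10 scale, with the summit offset.

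Genes and TSS were those of GENCODE vM21, and a promoter peak lay within 3 kb of a TSS, as in the study. Fragments at a summit were recovered as the whole number giving both the fold enrichment and −log10 p (tolerance 0.0005), which worked for 99.3% to 99.9% of peaks and for 100% of 500 simulated peaks. The lists hold no totals, so the sequencing depth is unknown beyond these fragments. Peaks off the assembled chromosomes were left out (21128 control female, 41365 VEDS male, 1221 control male and 491 VEDS female peaks remained). Overlap meant 1 bp or more. Motifs were matched exactly in 300 bp around each summit, and CpG content was taken in 1000 bp around the 5′ start.

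Named were all members with their highest promoter and distal peaks, the highest region found in 1 list, neighboring genes nearest to a peak, and, of the other gene lists, the genes without a promoter peak and the 2 of highest rank. A few further genes were named after their values were seen. An item under this rule is not reported here. The members and gene lists were chosen with earlier results of these data known. Python 3.11.15, numpy 2.4.6, pandas 2.3.3, scipy 1.17.1, pysam 0.24.0 and matplotlib 3.10.9 were used.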

Additional observations from a re-analysis of the deposited data

How the results depend on the processing

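No paired analysis was possible because no result comes from a test. Of 88 alternative values, 64 stayed within 1.5 times the value reported and 24 moved. The 64 include all 30 for the short lists, which stayed at 0, and stricter cutoffs could give those nothing else. With only peaks of −log10 q of at least 10, the windows held 4 control female and 13 VEDS male peaks, 1 member kept a promoter peak in control female, 4 regions were shared and the control female AP-1 match was lost (0). With the 504 highest peaks of each list, all these counts were 0. Limited to gene bodies, there were 9 and 14 peaks and 7 shared regions. With 50 kb on each side there were 26 and 43 peaks and 22 shared regions, and with 100 kb, a choice made after seeing the data, 37 and 75. Distal AP-1 matches in VEDS male rose to 3 in windows of 500 bp and to 2 in whole peaks, and in control female to 2 when distal meant beyond 1 kb. Leaving out each library in turn gave 15 to 26 merged regions, with 15 without VEDS male. Also after seeing the data, counting only the 5′-most start left 5 and 4 members with a promoter peak, without *Pdgfra* in either list. Median fragments of 7 and 6 at the summits of the short lists limit what those libraries can show.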

Other observations

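Peaks beyond 20 kb were looked at for the members without a peak of their own, after the data were seen. Around *Tcf21*, a region 57.4 kb upstream was in both long lists, at chr10:22877581-22877839 in control female (8 fragments, rank 15472) and chr10:22877532-22877866 in VEDS male (14 fragments, rank 25757), and *Tcf21* is the nearest coding gene to it. Its 300-bp summit windows held none of the 11 motifs. Upstream of *Dcn*, VEDS male alone had a peak 42.7 kb from the gene, at chr10:97436808-97436948, with 17 fragments, rank 20644 and an AP-1 match, and 68.1% of it is masked repeat. *Lum* had no peak within 100 kb in any list. Around *Pi16*, a region about 40.5 kb downstream, near *Fgd2*, was in both long lists with 11 fragments in control female and 26 in VEDS male, and held AP-1, the E-box and the NFI site together.

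With 100 kb on each side, *Pdgfra* had 4 control female and 5 VEDS male peaks, almost the same as with 20 kb. *Pdgfrb* went from 2 to 6 in control female and from 4 to 15 in VEDS male, and *Rgs5* had 2 and 11. The short lists had none around any member at this distance.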
